A study of Mus musculus with 12 samples.

Results

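Gene expression was compared between tumour-bearing lung tissue of mice labelled deficient in RelA/p65 and of wild type mice, both kept in air. The comparison rests on the 6 air arrays, titled P65 KO Air 1 to 3 and Wildtype Air 1 to 3, out of 12 arrays in the series, and on all 19937 genes named by a probe set with a single symbol. Total RNA came from Lewis lung carcinoma, a transplantable tumour line of C57BL/6 mice, dissected from lungs of C57BL/6 females, and was read on Affymetrix mouse gene arrays. The other 6 arrays hold both genotypes after exposure to smoke, 3 each. All 4 groups carry the tumour, and the age of the hosts, the deleted part of Rela, the Cre line and any pooling of animals are not given in the labels. The title of the series places the deletion in myeloid cells, and the study asks what that deletion does to the growth of the tumour. Values are log2 expression, differences are deficient air minus wild type air with the standard error (SE) of limma, a linear model fitted gene by gene, and a gene passed the test at an adjusted p under 0.05. The labels do not tell whether the arrays of a group are separate mice, so every p-value below reflects the spread among these samples only, which may be technical.

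RelA/p65 is the transactivating subunit of the common NF-kB dimer, which waits in the cytoplasm bound to IkB proteins, is freed when IkB kinase marks them for destruction, and then switches on cytokines, chemokines, adhesion molecules, survival genes and its own inhibitors. In tumours, macrophages and neutrophils with active NF-kB release factors that act on neighbouring tumour cells, vessels and lymphocytes. Interferons act through other factors, the STATs and IRFs, which bind the interferon-stimulated response element (ISRE) and the gamma-activated site (GAS).

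The arrays of each air group lay close together, and the groups lay apart. Across genes, arrays of the same group correlated with r of at least 0.995, and no array correlated above 0.978 with an array of the other air group. The array medians ran from 6.79 to 6.86, and the median gene had an SD of 0.0951 in wild type air and 0.0644 in deficient air. Wild type air replicate 1 stood apart from replicates 2 and 3 on interferon genes, so the GTPase, antiviral, Fcgr4 and Cxcl10 results are given with and without it. It was also higher on some monocyte and inflammatory genes, such as Ccr2, which read 8.66, 7.65 and 7.88 in wild type air. Without replicate 1 the rises of Ccr2, Cx3cr1, Il1b and Cxcl9, given below with it, became 1.61, 1.63, 2.12 and 2.70. Rela itself read 9.25, 9.16 and 9.26 in wild type air and 9.45, 9.44 and 9.38 in deficient air. Its level was thus not lower in the deficient arrays but higher by 0.20 ± 0.07 (adjusted p = 0.0285), and the call was lost on leaving out replicate 2 of wild type air or replicate 1 or 2 of deficient air. Because the deleted part is not stated and the title places the deletion in myeloid cells, which are a part of this tissue, this probe set does not check the genotype labels, and the word deficient rests on the labels alone. H2-Ea, an MHC class II gene that mice of the C57BL/6 haplotype are known not to transcribe, read 9.47, 9.71 and 9.95 in wild type air and 8.89, 8.59 and 9.95 in deficient air. Its levels overlapped between the air groups (-0.57 ± 0.32, adjusted p = 0.202), but deficient air replicate 3 read above its group, and without it H2-Ea fell by 0.97 and was called (adjusted p = 0.0146). In smoke the deficient arrays were higher by 5.30. Strain background and cross-hybridization of this probe set cannot be told apart here.

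The label calls the material tumour cells, but the arrays also read the host lung. Sftpc, the surfactant protein made by type II alveolar cells, read 13.85, 13.87 and 13.96 in wild type air and 14.07, 14.13 and 14.15 in deficient air. Scgb1a1, the secretory protein of airway club cells, read 13.35, 13.40 and 13.60 in wild type air and 13.69, 13.72 and 13.72 in deficient air. In such bulk tissue fewer cells of a type and less RNA per cell cannot be told apart.

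Among all 19937 genes, 4083 were higher in deficient air (20.5%) and 3591 were lower (18.0%), and the median difference of all genes was -0.03. Large differences were mostly rises: 670 of the called genes rose at least 2-fold and 261 fell at least 2-fold, and 14 rose at least 8-fold against 1 that fell as far. Every list below is read against these shares of 20.5% and 18.0%.

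**Figure D1:**
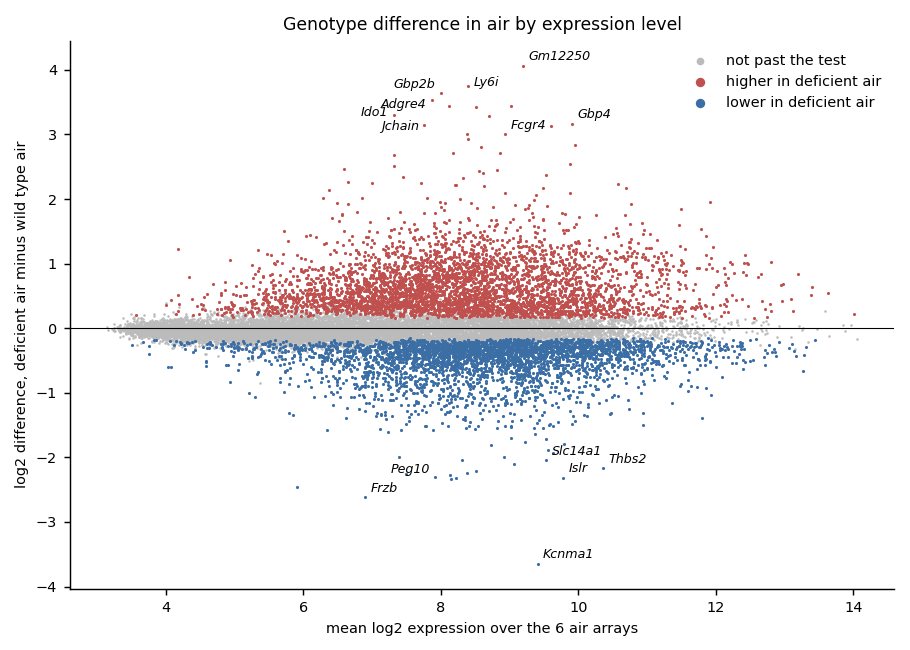
Log2 difference between deficient air and wild type air (vertical axis) against mean log2 expression over the 6 air arrays (horizontal axis) for 19937 genes. Each point is a gene, red where it was called higher (4083), blue where called lower (3591) and grey otherwise; the points farthest above 0 are interferon, antibody and monocyte genes such as Gm12250, Ly6i, Gbp2b, Jchain and Adgre4, and Kcnma1 lies farthest below.

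Many of the largest rises were in interferon-induced GTPases. Guanylate-binding proteins and immunity-related GTPases are known to coat and break open the vacuoles of intracellular pathogens, and interferon gamma is their best known inducer. Of 18 genes listed 10 were measured, and all 10 were higher in deficient air, by 1.91 to 3.64, with a median of 2.98. Gbp2b read 6.93, 5.88 and 5.72 in wild type air and 9.77, 9.85 and 9.83 in deficient air. Its groups did not overlap, and the difference of 3.64 ± 0.24 was a 12.5-fold rise (adjusted p = 1.91e-07). Gbp5, which also assists inflammasome activation, read 6.98, 5.93 and 6.29 in wild type air and 9.86, 9.84 and 9.80 in deficient air, a rise of 3.43 ± 0.21 (10.8-fold; adjusted p = 1.01e-07). Iigp1, an immunity-related GTPase, read 8.10, 6.63 and 7.16 in wild type air and 10.62, 10.79 and 10.80 in deficient air and rose by 3.44 ± 0.28. In each of these genes wild type air replicate 1 was the highest of the wild type arrays, while the deficient arrays lay within a narrow band. Gbp3, Gbp4, Gbp7, Gbp8 and Irgm1 rose by 3.12, 3.17, 2.83, 2.80 and 1.91. The mean of the list per array was 8.03, 7.23 and 7.44 in wild type air and 10.31, 10.45 and 10.45 in deficient air, and without wild type air replicate 1 all 10 members were still called, with a median of 3.23. Gm12250, named as a predicted gene in the annotation, had the largest rise of all genes and read 8.12, 6.96 and 6.43 in wild type air and 11.18, 11.25 and 11.27 in deficient air (4.06 ± 0.30, 16.7-fold). The predicted gene Gm4951 rose by 3.42 ± 0.25 (10.7-fold).

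The promoters of 4 of these genes are shown because the group moved together and each holds the core of the ISRE. Printed is the 250 bases before the RefSeq transcription start, 5′ to 3′ on the strand of the gene, GRCm38.p6, with matches to GAAANNGAA, read on either strand, in capitals.
Gbp2b, chr3:142594597-142594846, plus strand: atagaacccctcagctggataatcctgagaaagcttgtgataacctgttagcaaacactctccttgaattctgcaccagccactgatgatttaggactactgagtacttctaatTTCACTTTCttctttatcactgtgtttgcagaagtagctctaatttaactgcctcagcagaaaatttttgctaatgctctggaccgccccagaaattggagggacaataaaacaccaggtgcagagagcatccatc
Gbp5, chr3:142496684-142496933, plus strand: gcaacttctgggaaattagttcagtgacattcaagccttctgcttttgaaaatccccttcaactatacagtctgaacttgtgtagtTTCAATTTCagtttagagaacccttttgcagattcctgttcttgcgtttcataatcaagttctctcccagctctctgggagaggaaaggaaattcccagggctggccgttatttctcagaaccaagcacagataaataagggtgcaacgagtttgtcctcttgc
Gbp3, chr3:142559794-142560043, plus strand: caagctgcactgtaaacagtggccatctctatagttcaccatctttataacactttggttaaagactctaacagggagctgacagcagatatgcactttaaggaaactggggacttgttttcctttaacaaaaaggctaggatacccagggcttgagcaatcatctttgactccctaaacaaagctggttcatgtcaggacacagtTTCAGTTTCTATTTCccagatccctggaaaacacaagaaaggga
Gbp7, chr3:142530086-142530335, plus strand: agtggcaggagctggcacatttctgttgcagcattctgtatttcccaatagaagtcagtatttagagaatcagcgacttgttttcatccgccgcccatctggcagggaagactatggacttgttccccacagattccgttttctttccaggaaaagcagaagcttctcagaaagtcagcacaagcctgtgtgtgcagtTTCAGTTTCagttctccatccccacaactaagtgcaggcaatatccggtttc
The match nearest to the start lies 136 bases before it in Gbp2b, 164 in Gbp5, 38 in Gbp3 and 52 in Gbp7, and in Gbp3 a pair of matches overlap. Windows were at hand for 15613 of the genes tested, 1 per gene, and 6.90% of them hold this core. It was found in 5 of 5 windows of the GTPase list, in 9 of 18 of the antiviral list, and in 16.7% of the 491 windows of genes that rose at least 2-fold, against 6.93% of the 202 windows of genes that fell at least 2-fold. Of MHC class I windows 2 of 11 hold it and of class II windows 0 of 6. TTCNNNGAA, the GAS, which can overlap the ISRE core, was found in 6.70% of all windows and in 2 of the 5 GTPase windows. A match of letters is a description of the window, not a binding site.

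Antiviral interferon-stimulated genes rose too, but less. Of 28 measured members 24 were higher and 1 was lower, with a median of 1.05. Ifit1, which binds viral RNA ends, read 8.27, 7.02 and 7.11 in wild type air and 8.99, 9.06 and 9.27 in deficient air. The single high wild type value is again replicate 1, the groups did not overlap, and the rise was 1.64 ± 0.26 (adjusted p = 0.000203). Zbp1, a sensor of left-handed nucleic acid, rose by 2.22 ± 0.25, Ifit3 by 1.69 ± 0.17, the RNA sensor Ifih1 by 1.50 ± 0.13 and the interferon brake Usp18 by 1.42 ± 0.15. Mx1, an antiviral dynamin-like GTPase, had a smaller rise of 0.59 ± 0.18 (adjusted p = 0.0206), which did not pass on leaving out replicate 2 or 3 of wild type air or replicate 3 of deficient air. Ifitm1, the only lower member, fell by 0.32. Without wild type air replicate 1, 25 members were higher, with a median of 1.25, and the rises of Ifit1 and Gbp2b were 2.04 and 4.02.

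Of the genes that make and carry the interferon signal, 14 of 20 were higher and 1 was lower, with a median of 0.57. Ifng, interferon gamma itself, read 5.62, 5.77 and 5.40 in wild type air and 5.88, 5.87 and 5.76 in deficient air. The highest wild type value exceeded the lowest deficient one, and the difference of 0.24 ± 0.11 did not pass (adjusted p = 0.12), though it did without replicate 2 of wild type air (0.33, adjusted p = 0.0493), with array weights and after quantile normalization. Irf1, a factor induced by interferon gamma, read 9.77, 9.50 and 9.66 in wild type air and 10.94, 10.86 and 10.86 in deficient air and rose by 1.24 ± 0.10, while a second, dimmer probe set of the gene read a difference of 0.15 that was not called. Irf8, needed for the monocyte and dendritic cell lineages, rose by 1.06 ± 0.07, and Irf9 and Stat2, partners in the complex that binds the ISRE, rose by 1.19 ± 0.12 and 1.04 ± 0.10. The receptor chain Ifngr2 rose by 0.65 ± 0.06. Socs3, a feedback inhibitor of cytokine receptors, was the lower member, at -0.26, a call lost on leaving out replicate 1 or 2 of wild type air or replicate 2 or 3 of deficient air.

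Ly6 proteins are small lipid-anchored surface proteins, several of them interferon-induced. Of 11 measured, 5 were higher and 0 lower, with a median of 0.18. Ly6i read 6.82, 6.29 and 6.48 in wild type air and 10.34, 10.27 and 10.21 in deficient air. This 13.4-fold rise (3.74 ± 0.18, adjusted p = 2.1e-08) stood far above that of the next members, Ly6d at 1.04 ± 0.11, Ly6g at 0.55 ± 0.11 and Ly6e at 0.42 ± 0.06.

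**Figure D2:**
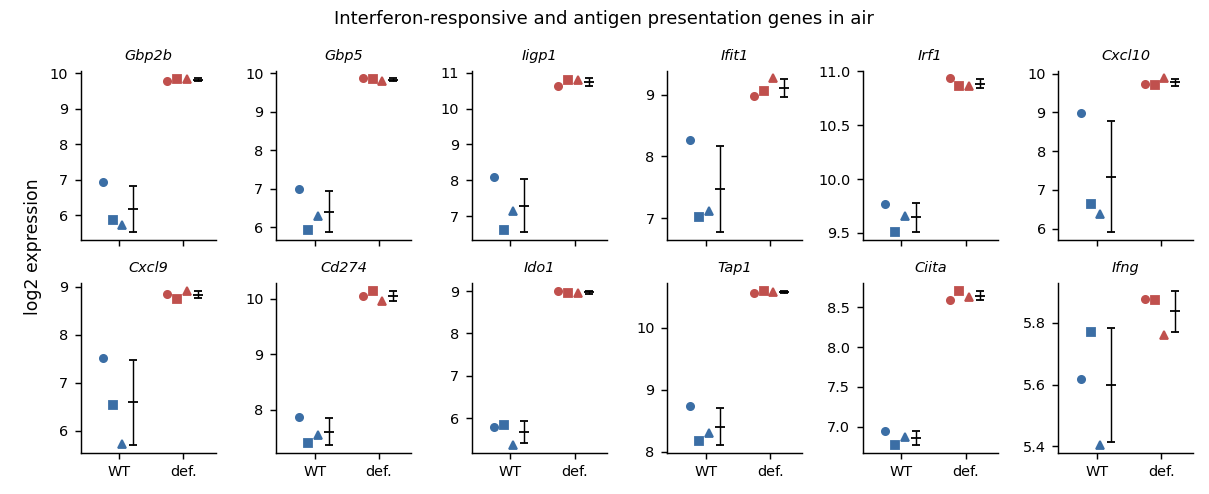
Log2 expression (vertical axis, a separate range in each panel that does not start at 0) of 12 interferon-responsive and antigen presentation genes in the 3 wild type (WT) and 3 deficient (def.) air arrays, with circle, square and triangle for replicates 1, 2 and 3 and a bar for mean ± SD. Wild type replicate 1 is the highest of its group in every panel but Ido1 and Ifng, and only the Ifng groups overlap.

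Genes of antigen presentation rose as a block. The class I pathway trims proteins in the immunoproteasome, pumps peptides through TAP and loads them on class I molecules for CD8 T cells; 12 of 13 measured genes were higher and 0 lower, with a median of 0.97. Tap1, a subunit of the peptide pump, read 8.74, 8.17 and 8.31 in wild type air and 10.56, 10.59 and 10.58 in deficient air. The rise was 2.17 ± 0.13 (4.51-fold; adjusted p = 1.04e-07). The immunoproteasome subunits Psmb9 and Psmb8 rose by 2.09 ± 0.12 and 1.89 ± 0.15, the class I gene H2-Q4 by 2.23 ± 0.13, Tap2 by 0.97 ± 0.07 and the light chain B2m by 0.51 ± 0.08. H2-Q4 belongs to a family of near-identical genes, so its signal may include relatives. Nlrc5, the class I transactivator, did not pass (0.12). Without wild type air replicate 1, 12 class I genes were still higher, with a median of 1.01.

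Class II molecules show extracellular peptides to CD4 T cells, and 9 of 10 measured genes of this pathway were higher, with a median of 1.82; H2-Ea was the exception. Ciita, the master regulator of class II genes, read 6.95, 6.77 and 6.87 in wild type air and 8.59, 8.71 and 8.64 in deficient air and rose by 1.78 ± 0.08 (adjusted p = 9.83e-09). Cd74, the invariant chain, read 10.70, 10.30 and 10.73 in wild type air and 12.34, 12.48 and 12.44 in deficient air, and H2-Ab1 read 11.31, 10.54 and 10.94 in wild type air and 12.81, 12.94 and 12.92 in deficient air. In both genes the lowest deficient array lay above the highest wild type one. The rises were 1.85 ± 0.11 and 1.96 ± 0.17, beside 1.94 ± 0.10 for the peptide exchanger H2-DMa, 1.94 ± 0.11 for H2-Ob and 1.60 ± 0.09 for H2-Eb1.

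Among genes that restrain T cells, 8 of 14 were higher, with a median of 0.27, and the rise was concentrated in a few. Ido1, the interferon-induced enzyme that breaks down tryptophan, read 5.78, 5.84 and 5.36 in wild type air and 9.0, 8.95 and 8.95 in deficient air, a 9.91-fold rise (3.31 ± 0.16, adjusted p = 1.66e-08). Cd274, which encodes PD-L1, read 7.87, 7.40 and 7.54 in wild type air and 10.04, 10.14 and 9.95 in deficient air. It rose by 2.44 ± 0.12, and by 2.58 without wild type air replicate 1. The second PD-1 ligand, Pdcd1lg2, rose by 0.83 ± 0.07, Havcr2, which encodes TIM-3, by 1.34 ± 0.16 and Vsir by 0.78 ± 0.08. The receptor gene Pdcd1 itself overlapped between groups (0.18 ± 0.13, adjusted p = 0.325).

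Lymphocyte genes were higher in deficient air. T cell genes were higher in 18 of 20 cases, with a median of 0.63, and NK and cytotoxic genes in 18 of 20, with a median of 0.99 (1.71 over the members left by a filter on dim genes). Gzma, a granzyme of cytotoxic granules, read 7.08, 6.65 and 6.91 in wild type air and 9.89, 9.88 and 9.87 in deficient air. The deficient arrays were nearly identical, far above the wild type arrays, and the rise was 3.00 ± 0.11 (8.0-fold; adjusted p = 2.38e-09). Gzmb read 6.50, 5.58 and 5.83 in wild type air and 8.71, 8.54 and 8.72 in deficient air and rose by 2.69 ± 0.21, and the pore-forming perforin gene Prf1 rose by 1.51 ± 0.13. Ncr1, the NK receptor NKp46, read 5.89, 5.50 and 5.64 in wild type air and 7.29, 7.59 and 7.44 in deficient air, a rise of 1.76 ± 0.14, and the granule gene Nkg7 and the receptor Klrg1 rose by 2.32 ± 0.08 and 1.71 ± 0.10. Of the T cell receptor complex, Cd3g rose by 1.83 ± 0.08, Cd3d by 0.76 ± 0.09 and Cd3e by 0.56 ± 0.16, the last losing its call without wild type air replicate 2 or deficient air replicate 1. Cd8a read 7.52, 7.30 and 7.28 in wild type air and 8.66, 8.43 and 8.52 in deficient air and Cd4 read 6.05, 6.01 and 5.97 in wild type air and 6.95, 6.80 and 6.84 in deficient air. Both coreceptor genes were higher in every deficient array, by 1.17 ± 0.14 and 0.85 ± 0.10. Foxp3, the factor of regulatory T cells, did not pass (-0.02).

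B lineage genes were higher in 14 of 18 cases, with a median of 0.60. Jchain, which links antibody molecules into polymers, read 6.25, 5.97 and 6.32 in wild type air and 9.40, 9.32 and 9.29 in deficient air, an 8.90-fold rise (3.15 ± 0.16, adjusted p = 2.79e-08). A variable segment of the kappa light chain rose by 3.28 ± 0.11 on its brighter probe set and read a difference of 0.08, not called, on its other one. B cell surface genes rose less, with Ms4a1, the CD20 gene, at 1.01 ± 0.09, the antigen receptor subunit Cd79b at 0.93 ± 0.10 and the complement receptor Cr2 at 0.71 ± 0.08.

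Myeloid genes rose in an uneven way. All 14 measured genes listed for nonclassical monocytes, the cells that patrol the inside of vessels, were higher, with a median of 1.36. In bulk tissue other cells may add to the signal of these genes. Adgre4, an adhesion receptor of these cells, read 6.01, 6.16 and 6.16 in wild type air and 9.58, 9.79 and 9.53 in deficient air. Its 11.5-fold rise (3.53 ± 0.10, adjusted p = 1.16e-09) was followed by those of Treml4 (2.93 ± 0.14), Cd300e (2.71 ± 0.11) and the integrin Itgal (2.20 ± 0.10). Ace, a defining member, rose by 1.17 ± 0.09 in air and by 3.25 in smoke, where Adgre4 rose by 1.36. Nr4a1, the nuclear receptor this lineage depends on, read 8.43, 8.32 and 8.53 in wild type air and 10.20, 10.26 and 10.19 in deficient air and rose by 1.79 ± 0.07. General macrophage and monocyte genes were higher in 19 of 24 cases, with a median of 0.51. Fcgr4, an activating IgG receptor, read 8.35, 6.85 and 7.10 in wild type air and 10.41, 10.48 and 10.42 in deficient air, and its rise of 3.00 ± 0.28 became 3.46 without wild type air replicate 1. Csf1r, the receptor for the macrophage growth factor, read 9.39, 9.32 and 9.37 in wild type air and 10.61, 10.58 and 10.57 in deficient air and rose by 1.23 ± 0.06, and Adgre1, the usual surface marker of mouse macrophages, rose by 1.16 ± 0.12. Cd163, Gpnmb, Trem2, Mrc1 and Msr1, genes of scavenging macrophages, did not pass.

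Alveolar macrophage genes were higher in 12 of 13 cases (median 1.10), with Atp6v0d2 at 1.58 ± 0.10, Mcemp1 at 1.34 ± 0.10 and Plet1 at 1.28 ± 0.06; the scavenger receptor Marco rose by only 0.35 ± 0.11, which did not pass on leaving out replicate 3 of wild type air (0.19) or replicate 1 or 2 of deficient air. Neutrophil genes were higher in 12 of 21 cases (median 0.55). Lcn2, lipocalin 2, read 9.69, 9.36 and 9.78 in wild type air and 11.79, 11.84 and 11.73 in deficient air and rose by 2.18 ± 0.12, S100a8 by 0.73 ± 0.08, Csf3r by 1.11 ± 0.09 and the collagenase Mmp8 by 1.22 ± 0.10. Lcn2 also had the highest difference on the list of inflammatory NF-kB targets. The primary granule genes Mpo, Elane and Prtn3 did not pass. Dendritic cell genes were higher in 10 of 17 cases and lower in 2 (median 0.66). Xcr1, the chemokine receptor of cross-presenting dendritic cells, rose by 1.01 ± 0.10, and Itgax by 1.58 ± 0.13. Fscn1, which bundles actin in mature dendritic cells and in many tumour cells, fell by 1.28 ± 0.12. Siglech was not called, except in 3 of 14 other settings, and Flt3 was called, but in only 9 of 14 other settings. Of 15 mast cell, basophil and eosinophil genes 7 were higher and none lower (median 0.29), and 4 were higher without replicate 3 of wild type air or replicate 1 or 3 of deficient air; Kit, also a gene of other cells, led with 1.11 ± 0.09, and Mcpt8 and Prg2 overlapped between groups.

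The NF-kB pathway and its targets showed no common loss in deficient air. Of 18 subunits, inhibitors and kinases 9 were higher and 0 lower, with a median of 0.19. Rel, the subunit c-Rel, read 8.30, 7.90 and 8.14 in wild type air and 9.17, 9.18 and 9.10 in deficient air and rose by 1.03 ± 0.09. Nfkbia, the inhibitor IkB alpha, itself a classical target, read 10.05, 9.94 and 9.97 in wild type air and 10.75, 10.63 and 10.56 in deficient air and rose by 0.66 ± 0.06. Tnfaip3, the A20 brake, rose by 0.90 ± 0.07, Nfkbie by 0.66 ± 0.12 and Tnip1 by 0.37 ± 0.06, whereas Relb did not pass (0.15 ± 0.10, adjusted p = 0.252). Of 32 inflammatory targets 15 were higher and 6 lower, with a median of 0.27. The highest difference was 2.18, that of Lcn2. Il1b, interleukin 1 beta, read 7.15, 5.79 and 6.59 in wild type air and 8.41, 8.31 and 8.20 in deficient air, with a wide wild type spread, and rose by 1.80 ± 0.24 (adjusted p = 4.19e-05). Tnf read 6.46, 6.37 and 6.19 in wild type air and 7.07, 7.08 and 6.93 in deficient air and rose by 0.68 ± 0.08, and the leukocyte adhesion molecule Icam1 rose by 1.11 ± 0.08. Il6 read 3.74, 3.58 and 3.73 in wild type air and 3.72, 3.89 and 3.63 in deficient air, dim in every array, with a difference of 0.06 ± 0.08 (adjusted p = 0.615). The 6 lower targets, a share near the background that fell to 3 genes on leaving out replicate 1 of wild type air or replicate 3 of deficient air, were Plau, Ccl2, Vcam1, Csf1, Lif and Tnfaip2, at -1.50, -0.53, -0.42, -0.31, -0.30 and -0.29. GGANTTTCC, the core of the kB site, was found in 6 of the 22 promoter windows of these targets and in 1.08% of all windows.

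Chemokine ligands were higher in 14 of 33 cases and lower in 5, the latter below the background of 18.0%, with a median of 0.21. The lymphocyte attractants led. Ccl5 read 8.85, 8.40 and 8.59 in wild type air and 11.12, 11.19 and 11.16 in deficient air, a rise of 2.55 ± 0.17 (5.84-fold; adjusted p = 1.55e-07). Cxcl10, induced by interferon and bound by CXCR3, read 8.98, 6.63 and 6.39 in wild type air and 9.73, 9.71 and 9.88 in deficient air. Replicate 1 of wild type lay far above the other wild type arrays but below every deficient array, and the rise of 2.44 ± 0.49 (adjusted p = 0.00118) became 3.27 without it. Cxcl9, of the same family, read 7.51, 6.53 and 5.73 in wild type air and 8.84, 8.75 and 8.91 in deficient air and rose by 2.24 ± 0.36. The homing chemokines Cxcl16 and Cxcl12 rose by 1.10 ± 0.12 and 0.80 ± 0.07. Ccl6 rose by 1.10 ± 0.09, and Ppbp was higher in all 14 other settings, by 0.94 to 1.20. Cxcl1, which draws neutrophils, overlapped (-0.17 ± 0.10, adjusted p = 0.196) but was called at -0.28 without replicate 3 of wild type air (adjusted p = 0.0311). The 5 lower ligands were Cxcl5, Ccl25, Ccl2, Ccl7 and Ccl11, at -1.05, -0.58, -0.53, -0.41 and -0.33, and 8 ligands were lower without replicate 3 of wild type air. Receptors were higher in 15 of 21 cases and lower in none (median 0.56). Cx3cr1, of patrolling monocytes, rose by 1.43 ± 0.13, Ccr2, of inflammatory monocytes, by 1.31 ± 0.20, Cxcr3, of activated T cells, by 0.92 ± 0.11 and Cxcr2, of neutrophils, by 1.00 ± 0.11.

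Complement genes were higher in 11 of 16 cases and lower in 1 (median 0.43). Factor B, Cfb, rose by 1.98 ± 0.11, C4b by 1.52 ± 0.11 and C6, of the membrane attack complex, by 1.41 ± 0.10, while Masp1, a protease of the lectin pathway, read 8.24, 8.46 and 8.47 in wild type air and 6.50, 6.21 and 6.51 in deficient air and fell by 1.99 ± 0.10. Among apoptosis regulators 11 of 22 were higher and 2 lower (median 0.27). The death ligand Tnfsf10, or TRAIL, read 9.36, 9.23 and 9.56 in wild type air and 11.07, 11.20 and 11.13 in deficient air and rose by 1.75 ± 0.15, and the death receptor Fas rose by 1.09 ± 0.14. The survival genes Birc3, Mcl1 and Cflar rose as well, by 0.93 ± 0.08, 0.60 ± 0.06 and 0.53 ± 0.06, and the falls were those of pro-apoptotic Bcl2l11 (-0.54 ± 0.06) and anti-apoptotic Bcl2 (-0.34 ± 0.06).

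Cell division genes fell together. All 36 measured genes of mitosis were lower in deficient air, with differences from -1.36 to -0.72 and a median of -1.09, and 32 of 33 DNA replication genes were lower, with a median of -0.83. Mki67, the proliferation antigen Ki-67, read 10.17, 10.03 and 9.96 in wild type air and 9.11, 8.87 and 8.85 in deficient air. The groups did not overlap, and Mki67 fell by 1.11 ± 0.14 (2.15-fold; adjusted p = 2.61e-05). Top2a, which untangles replicated DNA, read 11.25, 10.96 and 11.09 in wild type air and 10.22, 9.87 and 10.05 in deficient air and fell by 1.05 ± 0.13. The kinase Aurka, the checkpoint kinase Bub1b, cyclin B2 (Ccnb2) and the kinetochore genes Nuf2 and Cenpf fell by 1.08 ± 0.13, 1.07 ± 0.10, 1.36 ± 0.13, 1.32 ± 0.13 and 1.19 ± 0.11. Of replication genes, Mcm2, of the helicase ring, read 10.07, 9.86 and 9.94 in wild type air and 9.25, 9.02 and 9.09 in deficient air and fell by 0.84 ± 0.12. Thymidine kinase Tk1, the licensing factor Cdt1 and the clamp loader Rfc4 fell by 1.08 ± 0.12, 0.96 ± 0.11 and 0.97 ± 0.10, and the clamp itself, Pcna, by 0.48 ± 0.12. Orc1, of the origin complex, was the only replication gene not called (-0.27).

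The promoters of 3 mitotic genes are shown because they hold TTTGAA, the cell-cycle homology region (CHR) through which the DREAM and B-MYB complexes are known to time late cell cycle genes. Cdk1, the mitotic kinase, was picked for its window and fell by 1.34 ± 0.14; Kif2c, a kinesin that takes apart microtubules, fell by 1.27 ± 0.12. Matches on either strand are in capitals, in the 250 bases before the RefSeq start, GRCm38.p6, on the strand of the gene.
Cdk1, chr10:69352913-69353162, minus strand: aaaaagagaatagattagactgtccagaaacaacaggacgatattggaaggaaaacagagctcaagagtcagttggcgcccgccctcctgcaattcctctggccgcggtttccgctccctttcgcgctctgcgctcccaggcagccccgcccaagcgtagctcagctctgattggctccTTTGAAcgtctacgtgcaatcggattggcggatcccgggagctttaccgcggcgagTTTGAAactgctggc
Kif2c, chr4:117178773-117179022, minus strand: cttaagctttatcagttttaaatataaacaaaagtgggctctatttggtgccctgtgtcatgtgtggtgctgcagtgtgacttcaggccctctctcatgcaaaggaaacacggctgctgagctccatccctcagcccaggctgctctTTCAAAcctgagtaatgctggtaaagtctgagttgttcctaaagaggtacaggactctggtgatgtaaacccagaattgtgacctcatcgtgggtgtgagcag
Mki67, chr7:135716380-135716629, minus strand: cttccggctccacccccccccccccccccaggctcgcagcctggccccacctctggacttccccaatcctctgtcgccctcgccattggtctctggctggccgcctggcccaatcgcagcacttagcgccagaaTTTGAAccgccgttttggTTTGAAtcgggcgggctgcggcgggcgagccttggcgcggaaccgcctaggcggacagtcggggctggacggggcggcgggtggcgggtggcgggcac
TTTGAA was found in 10 of 31 mitotic windows (32.3%), in 4 of 29 replication windows and in 13.7% of all windows, and in 19.3% of the windows of genes that fell at least 2-fold. The nearest match lies 15 bases before the start in Cdk1, 103 in Kif2c and 98 in Mki67.

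Regulators of the G1 phase moved less, with 11 of 23 lower and 4 higher and a median of -0.21. E2f1 and E2f3, which switch on replication genes, fell by 0.72 ± 0.10 and 0.76 ± 0.11, and the kinase Cdk4 by 0.61 ± 0.07. Ccnd1, cyclin D1, read 11.36, 11.14 and 11.09 in wild type air and 11.05, 11.00 and 11.00 in deficient air. Its deficient arrays all lay below the wild type arrays, but the difference of -0.18 ± 0.09 did not pass (adjusted p = 0.166) except with array weights. The brakes Rb1 and Cdkn1c rose by 0.93 ± 0.11 and 0.61 ± 0.08. Of 17 p53 targets 5 were higher and 7 lower (median -0.07): Mdm2 and Ccng1 overlapped between groups, Gadd45a fell by 1.15 ± 0.09, and Btg2 and Perp rose by 0.96 ± 0.09 and 0.88 ± 0.09.

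Many genes of glycolysis and of the ribosome were lower as well. Of 27 hypoxia and glycolysis genes 16 were lower and 2 higher, with a median of -0.39. Stc1, stanniocalcin, a secreted hypoxia-responsive hormone, read 9.41, 9.13 and 9.41 in wild type air and 6.89, 7.14 and 6.91 in deficient air and fell by 2.34 ± 0.09 (5.05-fold; adjusted p = 5.47e-09). The glycolytic enzymes Pfkl, Pgam1, Pkm and Ldha fell by 0.62 ± 0.09, 0.60 ± 0.09, 0.53 ± 0.07 and 0.39 ± 0.08, and the glucose transporter Slc2a1 by 0.44 ± 0.11. Car9, a classical hypoxia marker, overlapped (0.09 ± 0.11, adjusted p = 0.598), and Vegfa rose by 0.62 ± 0.07. Ribosomal protein genes were lower in 22 of 26 cases and higher in none, by small amounts (median -0.36), with Rpl23 at -0.52 ± 0.06 and Rplp0 at -0.42 ± 0.07. These genes have many processed copies that may share signal, and Rpl38 lost its call when its probe sets were averaged. Respiratory chain genes were lower in 8 of 35 cases (5 without replicate 1 of wild type air, 4 without replicate 2 of deficient air), near the background of 18.0%, with a median of -0.08, and Atp5b and Cox4i1 overlapped between groups.

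Matrix and stromal genes split between large falls and smaller rises. Islr, a secreted protein of mesenchymal cells, read 10.76, 11.02 and 11.05 in wild type air and 8.58, 8.59 and 8.71 in deficient air, and Thbs2, thrombospondin 2, read 11.39, 11.44 and 11.48 in wild type air and 9.47, 9.0 and 9.35 in deficient air. Both were lower in every deficient array, by 2.32 ± 0.08 (4.99-fold) and 2.16 ± 0.14 (4.48-fold). Tumour fibroblast genes as a list had 8 higher and 8 lower of 21 (median 0.14). S100a4, Vcan (versican) and Fn1 (fibronectin) fell by 1.79 ± 0.18, 1.42 ± 0.16 and 1.03 ± 0.07, whereas Bgn (biglycan) and the actin Acta2 rose by 0.82 ± 0.07 and 0.32 ± 0.09, and Fap overlapped but was called without replicate 2 of deficient air (0.34). Acta2 was not called without wild type air replicate 2 or 3 or deficient air replicate 2. Collagens had 12 lower and 6 higher of 33 (median -0.12). Col3a1, a fibrillar collagen, read 12.40, 12.49 and 12.61 in wild type air and 11.18, 10.90 and 11.23 in deficient air and fell by 1.40 ± 0.09, Col18a1 by 1.55 ± 0.12 and Col5a1 by 0.90 ± 0.07, while Col1a1 fell by only 0.26 ± 0.09, overlapped between groups, and lost its call without wild type air replicate 1 or 2 or any single deficient air array.

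Proteinases fell and rose in near equal number, 8 lower and 9 higher of 29 (median -0.02). Mmp13, a collagenase, read 9.31, 9.18 and 9.33 in wild type air and 7.05, 7.06 and 6.88 in deficient air and fell by 2.28 ± 0.14 (4.84-fold; adjusted p = 1.03e-07). Mmp3, a stromelysin, read 10.05, 10.14 and 10.18 in wild type air and 8.03, 7.90 and 8.13 in deficient air and fell by 2.10 ± 0.12, and the membrane-bound Mmp14 fell by 1.25 ± 0.09. Against these, Mmp2 rose by 0.52 ± 0.08 and the inhibitor Timp3 by 1.18 ± 0.10. In plasmin generation 4 of 9 genes were lower and 2 higher, the latter 0 to 1 on leaving out single arrays other than replicate 1 of wild type air and replicate 3 of deficient air. Both activators were among the lower: Plau, the urokinase gene, read 10.38, 10.26 and 10.31 in wild type air and 8.90, 8.64 and 8.92 in deficient air and fell by 1.50 ± 0.16, and Plat fell by 0.85 ± 0.07; the receptor Plaur rose by 0.37 ± 0.10, but not without wild type air replicate 2.

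Regulators of mesenchymal state were lower in 8 of 16 cases and higher in 5 (median -0.18). Their differences ran from -1.80 to 0.66. Twist1 read 9.66, 9.58 and 9.67 in wild type air and 8.11, 7.58 and 7.81 in deficient air and fell by 1.80 ± 0.13 (3.49-fold; adjusted p = 2.89e-07), and Prrx1, Snai2 and Snai1 fell by 1.44 ± 0.11, 0.82 ± 0.10 and 0.38 ± 0.07. Zeb1 did not pass (0.16 ± 0.06), but did in 5 other settings. Among growth factors 17 of 29 were higher and 3 lower (median 0.29); Pdgfd, Bmp6 and Ccn2 rose by 1.34 ± 0.10, 1.20 ± 0.07 and 1.17 ± 0.06, and Pdgfc fell by 1.36 ± 0.15. Ptn, pleiotrophin, named among the largest falls, read 9.42, 9.50 and 9.59 in wild type air and 7.51, 6.88 and 7.41 in deficient air and fell by 2.24 ± 0.13.

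**Figure D3:**
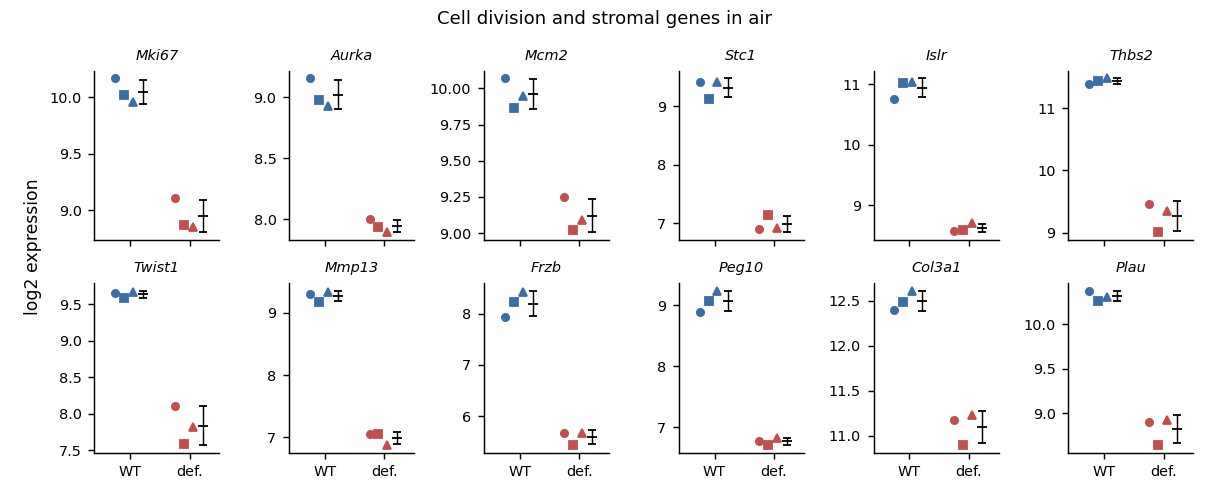
Log2 expression (vertical axis, a separate range in each panel that does not start at 0) of 12 cell division and stromal genes in the 3 wild type (WT) and 3 deficient (def.) air arrays, with circle, square and triangle for replicates 1, 2 and 3 and a bar for mean ± SD. In every panel all deficient arrays lie below all wild type arrays.

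The Wnt pathway drives proliferation by holding beta-catenin back from breakdown, and secreted antagonists limit it. Of 40 ligands, receptors and antagonists 11 were higher and 5 lower, the latter below the background of 18.0%, with a median of 0.09. The largest differences were in antagonists. Frzb, a secreted Frizzled-related protein, read 7.94, 8.23 and 8.43 in wild type air and 5.67, 5.43 and 5.66 in deficient air and fell by 2.62 ± 0.11 (6.13-fold; adjusted p = 8.69e-09), and Dkk2 read 10.53, 10.52 and 10.75 in wild type air and 8.85, 8.44 and 8.73 in deficient air and fell by 1.93 ± 0.15. Sfrp1, another Frizzled-related antagonist, rose by 1.17 ± 0.11, and the receptors Fzd4 and Fzd8 rose by 1.20 ± 0.10 and 0.90 ± 0.09. Ctnnb1, beta-catenin, read 11.94, 11.95 and 12.03 in wild type air and 12.02, 11.98 and 12.02 in deficient air. It overlapped between groups, with a difference of 0.03 ± 0.06 (adjusted p = 0.717). Of 26 genes of the beta-catenin list 6 were higher and 5 lower (median 0.02), both near the background. Axin2, the usual reporter of the pathway, read 7.24, 7.19 and 7.39 in wild type air and 7.37, 7.27 and 7.32 in deficient air and did not pass (0.05 ± 0.08, adjusted p = 0.696). Apcdd1, a Wnt inhibitor and target, fell by 1.72 ± 0.10, and Nkd1 and Lef1 rose by 0.94 ± 0.10 and 0.55 ± 0.08. Birc5, also a mitotic gene, fell by 1.04 ± 0.13.

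Imprinted growth genes were higher in 6 of 21 cases and lower in 4 (median 0.06), near the background, but their falls were deep. Peg10, a retrotransposon-derived gene expressed from the paternal allele, read 8.90, 9.08 and 9.23 in wild type air and 6.77, 6.71 and 6.83 in deficient air and fell by 2.30 ± 0.09 (4.93-fold; adjusted p = 3.97e-09). Peg3 read 9.51, 9.61 and 9.70 in wild type air and 7.52, 7.24 and 7.45 in deficient air and fell by 2.20 ± 0.10. Igf2r, which clears insulin-like growth factor 2, and Mest fell by 1.22 ± 0.07 and 0.72 ± 0.08, while Igf2 overlapped (0.08 ± 0.11). Other genes among the 15 largest falls were Kcnma1, Ranbp3l, Nxf3, Raet1d, Slc14a1 and Gm773. Kcnma1, a calcium-activated potassium channel, read 11.00, 11.15 and 11.55 in wild type air and 7.56, 7.25 and 7.95 in deficient air on its brighter probe set and fell by 3.65 ± 0.38 (12.5-fold; adjusted p = 5.82e-06), while its other probe set read a difference of 0.05 that was not called, so the gene's own change is uncertain. Ranbp3l read 6.99, 7.04 and 7.39 in wild type air and 4.78, 4.82 and 4.46 in deficient air and fell by 2.45 ± 0.11. Raet1d, a ligand of the NK receptor NKG2D, fell by 2.05 ± 0.33, with near-identical relatives that may share its signal, and the urea transporter Slc14a1 and the RNA export factor Nxf3 fell by 2.04 ± 0.13 and 2.25 ± 0.20. Gm773 read 9.27, 9.43 and 9.48 in wild type air and 5.86, 7.60 and 7.74 in deficient air, with deficient replicate 1 far below the other deficient arrays, and fell by 2.32 ± 0.38.

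Host lung genes were mostly higher in deficient air. All 16 type II and all 15 type I alveolar genes were higher, with medians of 0.91 and 0.86. Sftpd, a surfactant collectin, read 10.34, 10.37 and 10.68 in wild type air and 11.81, 11.81 and 11.86 in deficient air and rose by 1.36 ± 0.09 (adjusted p = 2.03e-07), and Ager, the type I cell receptor, read 11.95, 11.98 and 12.13 in wild type air and 12.88, 12.90 and 12.77 in deficient air and rose by 0.83 ± 0.07. Pdpn and Aqp5 rose by 1.11 ± 0.07 and 0.74 ± 0.10. Sftpc, bright in all arrays, rose by 0.22 ± 0.06 only. Club cell genes were higher in 14 of 17 cases (median 0.83), with Bpifa1 at 1.76 ± 0.11 and Cyp2f2 at 0.68 ± 0.08, and Scgb1a1 did not pass (0.26 ± 0.11, adjusted p = 0.0873) but did with array weights, with the air arrays alone and without replicate 3 of wild type air. Ciliated cell genes were higher in 18 of 21 cases (median 0.64): the axonemal gene Rsph4a rose by 1.14 ± 0.10, Foxj1 passed only with array weights or the air arrays alone (0.30 ± 0.14), and Spag6 was lower (-0.78).

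Endothelial genes were higher in 26 of 27 cases, with a median of 0.95. Pecam1, the adhesion molecule CD31, read 10.37, 10.36 and 10.52 in wild type air and 11.62, 11.68 and 11.65 in deficient air and rose by 1.24 ± 0.07. The sphingosine receptor S1pr1, the receptor kinase Tek and VE-cadherin, Cdh5, rose by 1.45 ± 0.08, 1.12 ± 0.07 and 0.98 ± 0.08. Junction and keratin genes of epithelia were higher in 17 of 23 cases (median 0.57), with Epcam at 0.97 ± 0.09 and E-cadherin, Cdh1, at 0.95 ± 0.08. Resident fibroblast genes were higher in 14 of 18 cases and lower in 3 (median 0.58): Tcf21, the factor of lung lipofibroblasts, rose by 1.61 ± 0.09 and Itga8 by 1.11 ± 0.08, while Scara5, Serpinf1 and Dpt fell by 1.40 ± 0.09, 1.32 ± 0.10 and 0.86 ± 0.08. Smooth muscle (11 of 14 higher, median 0.61), pulmonary vein cardiac muscle (14 of 16, median 0.83) and mesothelial genes (8 of 10, median 0.88) followed the same direction. Nppa, the atrial natriuretic peptide, read 7.33, 7.40 and 7.51 in wild type air and 9.76, 9.87 and 9.81 in deficient air and rose by 2.40 ± 0.10, and the smooth muscle myosin Myh11 rose by 0.76 ± 0.08 and mesothelin, Msln, by 1.15 ± 0.08. The mesothelial gene Wt1 did not pass.

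Lung, vessel and leukocyte markers thus differed between the same arrays as the genes above. The mean of the type II list per array was 10.93 to 11.14 in wild type air and 11.85 to 11.89 in deficient air, that of the endothelial list 9.42 to 9.58 in wild type air and 10.43 to 10.47 in deficient air, and that of the macrophage list 8.70 to 9.01 in wild type air and 9.48 to 9.51 in deficient air. Mitotic genes moved the opposite way, with list means of 9.14 to 9.33 in wild type air and 8.05 to 8.25 in deficient air. The part of the lung, vessel and leukocyte markers in the interferon, stromal and cell division results was not tested. The GTPase differences ran from 1.91 to 3.64. The highest single marker difference was 1.45 in alveolar and endothelial genes, 1.76 in club cell genes and 2.40 in pulmonary vein muscle genes. It was 1.61 in resident fibroblast genes, 3.53 in nonclassical monocyte genes, 3.15 in B lineage genes, and 3.00 in both NK and macrophage genes.

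**Figure D4:**
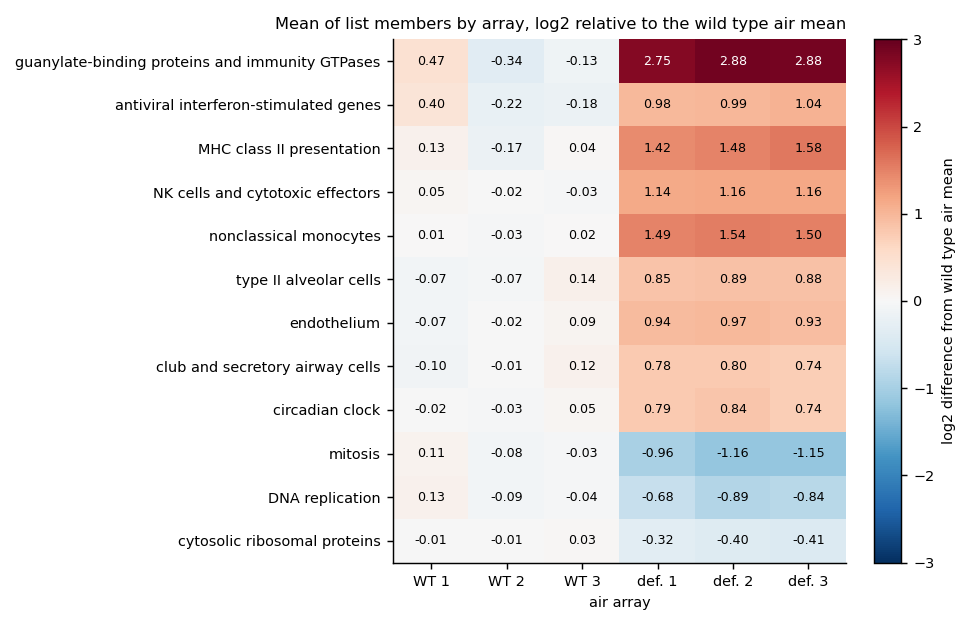
Mean log2 expression of the members of 12 gene lists (rows) in each of the 6 air arrays (columns), as the difference from the mean of the 3 wild type (WT) air arrays; colour runs from blue (lower) to red (higher). In every row the 3 deficient (def.) arrays lie on the same side of all wild type arrays; deficient array 1 is less low than the others for mitosis (-0.96) and DNA replication (-0.68), and wild type array 1 is 0.47 above its group mean for the GTPases and 0.40 above it for the antiviral genes.

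Genes that respond to time of day or to handling of tissue differed too. Of 15 circadian clock genes 12 were higher and 1 lower (median 0.82). Dbp, a clock output factor, read 8.09, 8.27 and 8.0 in wild type air and 10.04, 10.14 and 9.91 in deficient air and rose by 1.91 ± 0.08 (3.77-fold; adjusted p = 1.01e-08). Nr1d1, the repressor REV-ERB alpha, read 8.01, 7.92 and 7.73 in wild type air and 9.50, 9.60 and 9.61 in deficient air and rose by 1.68 ± 0.08, and Arntl, the BMAL1 gene that it represses, read 8.17, 8.27 and 8.27 in wild type air and 7.57, 7.47 and 7.53 in deficient air and fell by 0.71 ± 0.08. Nr1d2, Per3 and Tef rose by 1.48 ± 0.08, 1.13 ± 0.07 and 1.08 ± 0.07. The time of day at which tissue was taken is not given in the labels, and its part was not tested. Immediate early genes were higher in 11 of 17 cases and lower in 1 (median 0.45). Their highest difference was 1.79, the size of the rise of Nr4a1 given above. Klf4 rose by 1.26 ± 0.08 and Dusp1 by 0.87 ± 0.08, and Fos was not called (0.19 ± 0.09). Of 6 red cell and platelet genes 4 were higher and 1 lower. The 4 became 2 without replicate 3 of wild type air or replicate 1 of deficient air. The red cell gene Alas2 rose by 1.05 ± 0.09. Platelet genes split. Gp9 was higher in all 14 other settings (0.32 to 0.48) and Itga2b in 12 of 14 (0.33 to 0.43 over all 14). Pf4 fell by 0.60 ± 0.19, but was not called without wild type air replicate 1 or 2 or deficient air replicate 2 or 3. Targets of the aryl hydrocarbon receptor, which senses smoke, had 2 higher and 2 lower of 8 in air (median 0.05), both near the background shares. The receptor gene Ahr, on this list, rose by 0.49 ± 0.07 and Aldh3a1 by 0.44 ± 0.13. Aldh3a1 lost its call on leaving out replicate 1 or 2 of wild type air or replicate 1 of deficient air, which left 1 higher. Cyp1a1 read 7.68, 7.71 and 7.97 in wild type air and 6.56, 6.54 and 6.30 in deficient air and fell by 1.32 ± 0.10, Nqo1 fell by 1.11 ± 0.10, and Cyp1b1 and Ahrr overlapped.

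A gene changed in stem cells of another strain can carry flanking DNA of that strain, so the 10 measured genes on each side of Rela in the GRCm38.p6 order were read. Of these 20 genes 3 were higher and 3 lower, with a median difference of 0.005 and a range from -0.54 to 0.99. Ctsw, Map3k11 and Snx32 rose by 0.99 ± 0.10, 0.59 ± 0.09 and 0.41 ± 0.10, and Ltbp3, Znrd2 and Cfl1 fell by 0.54 ± 0.08, 0.53 ± 0.09 and 0.24 ± 0.08. A second, dimmer probe set of Znrd2 read -0.12 and was not called. Ctsw, or cathepsin W, is also a gene of cytotoxic cells, and the call of Cfl1 was lost under median centring and without any single air array other than deficient replicate 1. Both counts lie just below the background shares of 20.5% and 18.0%.

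The genotype difference in air was set beside that in smoke, which uses other arrays but the same normalization and spread estimate. In smoke 4518 genes were higher in the deficient arrays (22.7%) and 7368 were lower (37.0%). Of the genes higher in air 84.8% were higher in smoke, and those 3462 genes are 76.6% of the genes higher in smoke; of the genes lower in air 87.3% were lower in smoke, and those 3135 genes are 42.5% of the genes lower in smoke. The opposite direction was called for 61 genes higher in air and 37 lower in air. The test of the difference between both contrasts called 2909 genes (14.6%), among them 1831 of the 4083 genes higher in air and 356 of the 3591 lower in air. Of those changed at least 2-fold in air, it called 498 of 670 rises and 36 of 261 falls.

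Some groups had a larger genotype difference in air than in smoke. Macrophage genes had a median of 0.51 in air and -0.31 in smoke, where 8 were higher and 12 lower, and the difference between exposures was called for 18 of 24. The mean of that list was 8.70 to 9.01 in wild type air and 9.48 to 9.51 in deficient air, 9.47 to 9.64 in wild type smoke and 9.32 to 9.45 in deficient smoke. Csf1r rose by 1.23 ± 0.06 in air against 0.01 in smoke (adjusted p = 1.98e-07 for the difference), and Cd274 by 2.44 against 0.77 (adjusted p = 1.42e-05). Adgre4, Fcgr4 and Jchain read 1.36, 0.75 and 1.24 in smoke. For the GTPases the difference between exposures was called in 6 of 10 genes, with medians of 2.98 in air and 1.90 in smoke. Falls of Kcnma1, Frzb, Ranbp3l, Mmp13 and Mmp3 were also larger in air, with smoke differences of -0.15, -0.35, -0.23, -0.40 and -0.23.

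Host lung genes went the other way, with smaller differences in air. The median of the club cell list was 0.83 in air and 4.65 in smoke, with the difference called for 15 of 17 genes, and that of the type II list was 0.91 and 2.88, called for 15 of 16. The wild type smoke arrays stood apart here: the mean of the club cell list was 9.35 to 9.57 in wild type air and 10.20 to 10.25 in deficient air, 6.42 to 6.54 in wild type smoke and 10.16 to 10.30 in deficient smoke. Cyp1a1 had opposite directions, -1.32 in air and 5.89 in smoke (adjusted p = 6.24e-12). For other groups the test of the difference called few genes: 3 of 36 mitotic genes (medians -1.09 and -1.45), 1 of 33 replication genes and 0 of 26 ribosomal protein genes. Gzma rose by 3.00 in air and 3.26 in smoke (adjusted p = 0.298), Islr read -2.32 and -2.21 (adjusted p = 0.559), and Peg10 read -2.30 and -2.21 (adjusted p = 0.68).

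**Figure D5:**
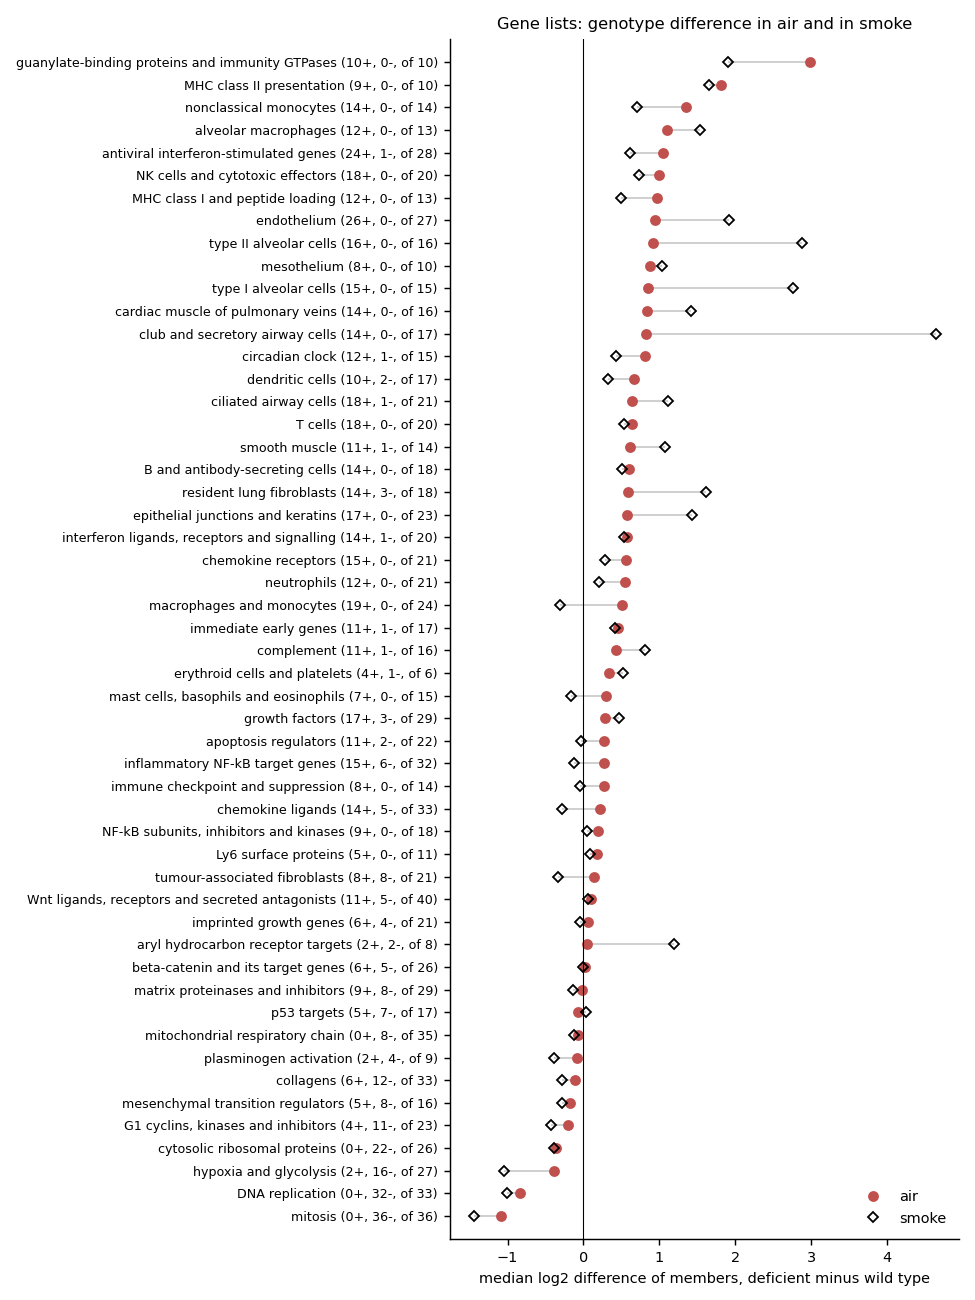
Median log2 difference, deficient minus wild type, of the members of 52 gene lists (rows; in brackets the members called higher, +, and lower, -, in air, of those measured), with red circles for air and open diamonds for smoke. The GTPase list lies farthest right in air (2.98) and the mitosis list farthest left (-1.09); the air and smoke medians of the club cell list are farthest apart (0.83 and 4.65).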

How the data were processed

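The study read total RNA on Affymetrix mouse whole-transcript arrays, and the labels give 4 groups of 3. The authors made the deposited log2 values with Affymetrix Expression Console and RMA, per the submitters' processing notes, which correct background, quantile-normalize and summarize probe sets; versions are not given in the sources used here. No scanner files were used here, so saturation and signal over background could not be read; these and the number of arrays limit the precision. Because RMA makes array distributions alike, a shift of most genes at once cannot be seen.

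Of 34760 probe sets, the platform annotation lists 22961, of which 21640 name 1 gene and 1321 several, and 11799 are not listed. For 954 genes with several probe sets the brightest over all 12 arrays was kept, which left 19937 genes. Entrez IDs of 21553 probe sets matched the RefSeq gene table and changed 0 symbols. A model of 4 group means was fitted to all 12 arrays with limma 3.58.1 (lmFit and eBayes, R 4.3.3, residual degrees of freedom 8, prior 4.83), and genes were called at a Benjamini-Hochberg adjusted p under 0.05 (2-sided, over all genes). On data simulated for this comparison over all 19937 genes, 100 of 100 genes shifted by 1 and 77 of 100 shifted by 0.5 were recovered, with 11 false calls. The simulation drew independent normal noise gene by gene with the fitted spread. It cannot show false calls from shifts that many genes of an array share.

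The members and the 52 gene lists, with 1056 of 1159 entries measured, were chosen with earlier results of these data known. Chosen for naming were 375 genes. They are the 15 largest rises and falls among called genes whose groups do not overlap, and up to 5 members of each list with the smallest p. Members marked as defining and the 10 genes on each side of Rela complete the set. Not all of them appear in the text. Left out are, among others, Wnt5a, Timp1 and Cdkn2a, which were not called, and Cpa3, which was. Cdk1, members that ran against their list, and other members outside these rules were named after their values were seen. Promoter windows come from RefSeq, GRCm38.p6. Replicate numbers were not used as pairs in the main model. Same-numbered arrays of both genotypes in air shared little, with correlations of their deviations of 0.0896, -0.0116 and 0.0792. The smoke arrays were not checked in this way, so a pairing is not excluded. Tables were handled in Python 3.11.15 with pandas 2.3.3, and figures drawn with matplotlib 3.10.9. Other settings were a filter on dim genes (15007 genes that reach a log2 value of 6 on 3 or more arrays), the mean of probe sets, an intensity trend, array weights, quantile normalization, median centring, a replicate block, the 6 air arrays alone, leaving out each air array and a log2 difference of at least 1.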

Additional observations from a re-analysis of the deposited data

Results flagged for a closer look

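For 2909 of 19937 genes the genotype difference differed between smoke and air by the test of that difference, given here as the smoke difference minus the air difference on the log2 scale. Of the 15 largest rises and 15 largest falls in air, 19 genes were among them. Rises that were smaller in smoke were those of a kappa light chain variable segment (-2.458), Gm12250 (-2.395), Fcgr4 (-2.256), Adgre4 (-2.165), Jchain (-1.913), Treml4 (-1.834), Ido1 (-1.789), Gbp2b (-1.762), Gm4951 (-1.474), Gbp5 (-1.414), Gbp3 (-1.108) and Ly6i (-1.073). Falls that were smaller in smoke were those of Kcnma1 (3.49), Frzb (2.263), Ranbp3l (2.227), Mmp13 (1.874), Mmp3 (1.871), Stc1 (1.294) and Peg3 (0.9336). These genes were chosen for a large difference in air, so a smaller one in other arrays has no second reading. Kcnma1 and the light chain segment each have another probe set whose air difference was not called.

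Probe sets outside the gene table also differed between the air groups in the same model. Of those that name several genes, 142 were higher and 240 lower in deficient air (28.9%), and of those with no gene listed, 433 were higher and 1267 lower (14.4%).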

How the results depend on the processing

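The counts of genes higher in deficient air (4083) and genes lower in deficient air (3591) ran from 4033 to 4585 and from 3175 to 4602 under the filter, probe set mean, trend, array weights, quantile normalization, centring, replicate block and the 6 air arrays alone. Requiring a difference of at least 1 left 670 and 261, by its construction. Leaving out single air arrays gave 3585 to 3809 higher and 2862 to 3408 lower genes. The replicate block, for numbers that showed little pairing in air, gave 4083 and 3695. The exposure test called 2909 genes, 6662 with array weights (the cause was not tested) and 745 at a size of at least 1; it cannot be fitted with the 6 air arrays alone. Of 331 called genes in the set chosen for naming, 310 kept call and direction in each of the 14 settings that held them, and 0 of 5236 values reversed. Genes removed by the filter on dim genes were not tested in that setting. Of 1456 counts of list members, each direction apart, 1392 stayed within 1.5 times and 64 did not, in 21 lists by direction, 7 of them with at least 5 members called: NK cells higher (18, 11 with the filter), mast cells higher (7, 2 to 4), NF-kB targets lower (6, 3), chemokine ligands lower (5, 8), respiratory chain lower (8, 4 to 13), and Wnt and beta-catenin genes lower (each 5, 8 with array weights). The filter moved the NK median from 0.99 to 1.71. Some medians near 0 changed sign: that of proteinases ran from -0.08 to 0.03. Rpl38 was not called as a mean of probe sets (adjusted p = 0.256, limma). No scanner data were used, so signal over background sets an unknown limit for dim genes such as Il6 and Ifng.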
